A study of Mus musculus with 18 samples.

Results

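The endoderm genes described here are Gata4, Gata6, Sox17, Sox7, Foxa1, Foxa2, Dab2 and Hnf4a, a list of 8 among the 25239 genes of the count matrix. They are a list of primitive and definitive endoderm genes, drawn up by name with earlier results of these data known, and all 8 passed the filter on low counts. All are transcription factors except Dab2, an endocytic adaptor protein that is kept here as a marker gene. Total RNA was depleted of ribosomal RNA and sequenced from E14Tg2a mouse embryonic stem cells carried through germ cell differentiation, in 9 conditions of 2 libraries each.

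In TKO cells the open reading frames of Tet1, Tet2 and Tet3, the enzymes that oxidise methylated cytosine in DNA, had been deleted with Cas9 and paired guides, and each such line is a clone of edited cells. The labels name no clone, and the study's methods give 1 clone for each genotype in its differentiation assays, C15 for TKO. If only that clone was sequenced, genotype and clone cannot be told apart in any comparison of TKO with wild-type cells. Cells of both genotypes were kept in 2i/LIF, turned into epiblast-like cells (EpiLCs, day 0) with Activin A and Fgf, and then aggregated in suspension in GK15 medium. Aggregates with cytokines received BMP4, BMP8a, SCF, LIF and EGF, which induce primordial germ cell-like cells (PGCLCs), while aggregates without cytokines received the medium alone. Wild-type cells were analysed as EpiLCs, as aggregates without cytokines at days 2 and 6, and with cytokines at day 6. TKO cells were analysed as EpiLCs and as aggregates with and without cytokines at days 2 and 6. The study describes the day 6 wild-type cells with cytokines as sorted for the germ cell surface proteins SSEA1 and CD61 and the other aggregates as whole, whereas the labels call them all aggregates. Genotype and sorting therefore cannot be told apart in the comparison of day 6 cells with cytokines. Wild-type day 2 aggregates with cytokines were not analysed here.

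Endoderm forms at separate times in the mouse embryo. Primitive endoderm, which lines the blastocyst cavity and builds the yolk sac, depends on Gata6 and then Gata4 and Sox17, while definitive endoderm, which forms the gut tube, arises at gastrulation with Sox17, Foxa2 and Foxa1. Several of these genes also work elsewhere, Gata4 and Gata6 in heart mesoderm and gonad, Sox7 and Sox17 in endothelium, and Foxa2 in the node and the floor plate of the neural tube, and Hnf4a marks visceral endoderm and later liver and gut.

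The libraries held between 11286050 and 41257861 counts, of which the ribosomal RNA locus Rn45s took 16.2 to 47.6%. Levels are given as normalised counts, that is counts divided by the library's DESeq2 size factor, and 3 counts corresponded to 1.36 to 5.04 normalised counts depending on the library. The members ranked low in expression, from the 5.54th percentile of all tested genes by mean level for Hnf4a to the 33.4th for Gata4. Of the pairs of replicates, the day 6 wild-type aggregates without cytokines had the highest chi-square of raw counts, 173.2 per gene. The lowest, 11.16, was in the day 6 TKO aggregates without cytokines. This measure grows with depth, and these pairs held 33893720 and 13195593 counts in wild type and 12063489 and 11286050 in TKO. In the 2 day 6 wild-type libraries without cytokines the floor plate and ventral midbrain list summed to 8431.1 normalised counts in replicate 1 and 1892.2 in replicate 2. The heart mesoderm list summed to 1250.3 and 46.3, and Ttr, a visceral endoderm and choroid plexus secretory gene, stood at 5.44 and 1330.6. Where leaving out either of these libraries changed a call of a member, or a TKO against wild-type list count by over 1.5 times, the value without it is given. As a check of the labels, the 3 Tet genes summed to 7179.8 to 7234.0 normalised counts in wild-type EpiLCs and 899.8 to 1228.2 in TKO EpiLCs, with Tet1 and Tet3 called lower and Tet2 not. In TKO against wild-type aggregates without cytokines, Tet3 alone was called lower at day 2 (median of the 3 genes -0.30) and Tet2 and Tet3 at day 6 (1 of them without wild-type replicate 1), and with cytokines at day 6 all 3 were. These counts cover whole genes, so reads from outside the deleted frames may remain in them. Where the reads lie was not tested. The replicates are named only as such in the labels, so every p-value rests on the spread between these libraries. That spread was estimated for each gene over all conditions together, although the pairs of replicates differed in how far apart they lay. It therefore is not the spread of the compared libraries alone.

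Gata4, a zinc finger factor of primitive endoderm and heart, lies on the minus strand of chromosome 14 (chr14:63198914-63271712, GRCm38). In wild-type cells it was at 4.82 and 3.89 normalised counts in the 2 EpiLC libraries, 1.95 and 8.55 at day 2 without cytokines, 0.453 and 0 at day 6 without cytokines, and 20.2 and 36.0 at day 6 with cytokines. In TKO cells it was at 107.1 and 37.4 in EpiLCs, 156.7 and 120.1 at day 2 without cytokines, 120.1 and 93.1 at day 2 with cytokines, 219.7 and 145.1 at day 6 without cytokines, and 194.9 and 179.1 at day 6 with cytokines. Every one of the 10 TKO libraries stood above every one of the 8 wild-type libraries, although the gap between the lowest TKO library (37.4) and the highest wild-type library (36.0) was narrow. Among the wild-type conditions the sorted day 6 cells were highest and did not overlap the others. The 4 highest conditions were all TKO aggregates, and the 2 at day 6 overlapped each other.

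Gata6, the zinc finger factor that starts primitive endoderm, is encoded on the plus strand of chromosome 18. Its wild-type levels were 1.61 and 0.556 normalised counts in EpiLCs, 18.5 and 16.3 at day 2 without cytokines, 3.63 and 0 at day 6 without cytokines, and 48.0 and 72.1 in sorted day 6 cells. Its TKO levels were 8.93 and 27.5 in EpiLCs, 27.0 and 21.6 at day 2 without cytokines, 12.5 and 36.0 at day 2 with cytokines, 75.4 and 73.2 at day 6 without cytokines, and 183.1 and 280.1 at day 6 with cytokines. The order was headed by the day 6 TKO aggregates with cytokines, then those without, then the sorted wild-type cells, and these 3 conditions did not overlap. The TKO EpiLCs and both day 2 TKO conditions overlapped one another.

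Sox17, an HMG-box factor of both endoderm lineages, lies on the minus strand of chromosome 1 (chr1:4490928-4497426, GRCm38). It stayed below 10 normalised counts in all 8 wild-type libraries, at 1.61 and 0.556 in EpiLCs, 8.77 and 3.89 at day 2, 3.17 and 2.32 at day 6 without cytokines, and 4.87 and 7.08 in sorted cells. TKO EpiLCs held 20.8 and 26.4, day 2 TKO aggregates 4.15 and 3.60 without and 7.93 and 7.45 with cytokines, and day 6 TKO aggregates 78.6 and 30.3 without and 60.5 and 75.8 with cytokines. The TKO course thus had a low point at day 2 between higher values in EpiLCs and at day 6, and the replicates of day 6 TKO aggregates without cytokines differed more than 2-fold.

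Sox7, the closely related HMG-box gene of parietal endoderm and endothelium, lies on the plus strand of chromosome 14 (chr14:63943706-63950732, GRCm38), on the same chromosome as Gata4. Wild-type cells held 1.61 and 0 normalised counts as EpiLCs, 42.9 and 9.32 at day 2, 4.99 and 6.95 at day 6 without cytokines, and 7.65 and 14.2 as sorted cells. TKO cells held 8.93 and 1.10 as EpiLCs, 32.2 and 13.2 at day 2 without and 26.1 and 28.6 with cytokines, and 43.1 and 46.7 at day 6 without and 77.3 and 52.8 with cytokines. The day 6 TKO conditions were highest and did not overlap each other, and at day 2 the wild-type range spanned that of the TKO cells.

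Foxa1, a forkhead pioneer factor of gut endoderm, lies on the minus strand of chromosome 12 (chr12:57540628-57548029, GRCm38). Wild-type levels were 3.21 and 1.11 normalised counts in EpiLCs, 11.7 and 11.65 at day 2, 38.1 and 16.2 at day 6 without cytokines, and 11.8 and 21.9 in sorted cells. TKO levels were 6.94 and 5.50 in EpiLCs, 38.4 and 33.6 at day 2 without and 9.07 and 11.2 with cytokines, and 217.5 and 166.6 at day 6 without and 104.1 and 188.3 with cytokines. The day 6 TKO conditions overlapped each other and stood well above every other condition. Ttc6, a gene that overlaps Foxa1 and was counted without strand information, held 0 to 36 counts per library.

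Foxa2, the forkhead factor of node, floor plate and definitive endoderm, lies on the minus strand of chromosome 2 (chr2:148042877-148046969, GRCm38) and behaved differently from Foxa1. It was at 12.85 and 7.23 normalised counts in wild-type EpiLCs, 46.8 and 29.5 at day 2, 66.6 and 6.95 at day 6 without cytokines, and 2.09 and 1.93 in sorted cells. TKO EpiLCs held 5.95 and 0, day 2 TKO aggregates 14.5 and 15.6 without and 0 and 0 with cytokines, and day 6 TKO aggregates 42.0 and 26.5 without and 6.72 and 3.44 with cytokines. The 3 highest conditions, wild-type days 2 and 6 and TKO day 6, were all cultures without cytokines, and their ranges overlapped. The library of the wild-type day 6 pair with more Foxa2 was also the one with more floor plate RNA, and the part of that difference in the Foxa2 value was not tested.

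Hnf4a, a nuclear receptor of visceral endoderm and liver, lies on the plus strand of chromosome 2 (chr2:163506811-163572907, GRCm38) and was the lowest member. Its wild-type levels were 24.1 and 4.45 normalised counts in EpiLCs, 13.65 and 0 at day 2, 0.453 and 0 at day 6 without cytokines, and 8.34 and 10.3 in sorted cells. Its TKO levels were 0.992 and 1.10 in EpiLCs, 0 and 0 at day 2 without and 4.53 and 0 with cytokines, and 7.54 and 3.79 at day 6 without and 33.6 and 8.04 with cytokines. Most neighbours in this order overlapped, and replicates differed several-fold in both the highest conditions.

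Dab2, the adaptor protein that primitive endoderm uses for endocytosis and polarity, lies on the plus strand of chromosome 15 (chr15:6299788-6440715, GRCm38) and was detected in every library. It was at 56.2 and 71.2 normalised counts in wild-type EpiLCs, 121.8 and 105.7 at day 2, 25.8 and 71.8 at day 6 without cytokines, and 12.5 and 18.02 in sorted cells. TKO EpiLCs held 66.5 and 29.7, day 2 TKO aggregates 56.0 and 87.7 without and 69.1 and 79.4 with cytokines, and day 6 TKO aggregates 133.5 and 111.1 without and 58.8 and 41.3 with cytokines. The sorted wild-type cells were lowest, and the day 6 TKO aggregates without cytokines overlapped the day 2 wild-type aggregates at the top.

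**Figure D1:**
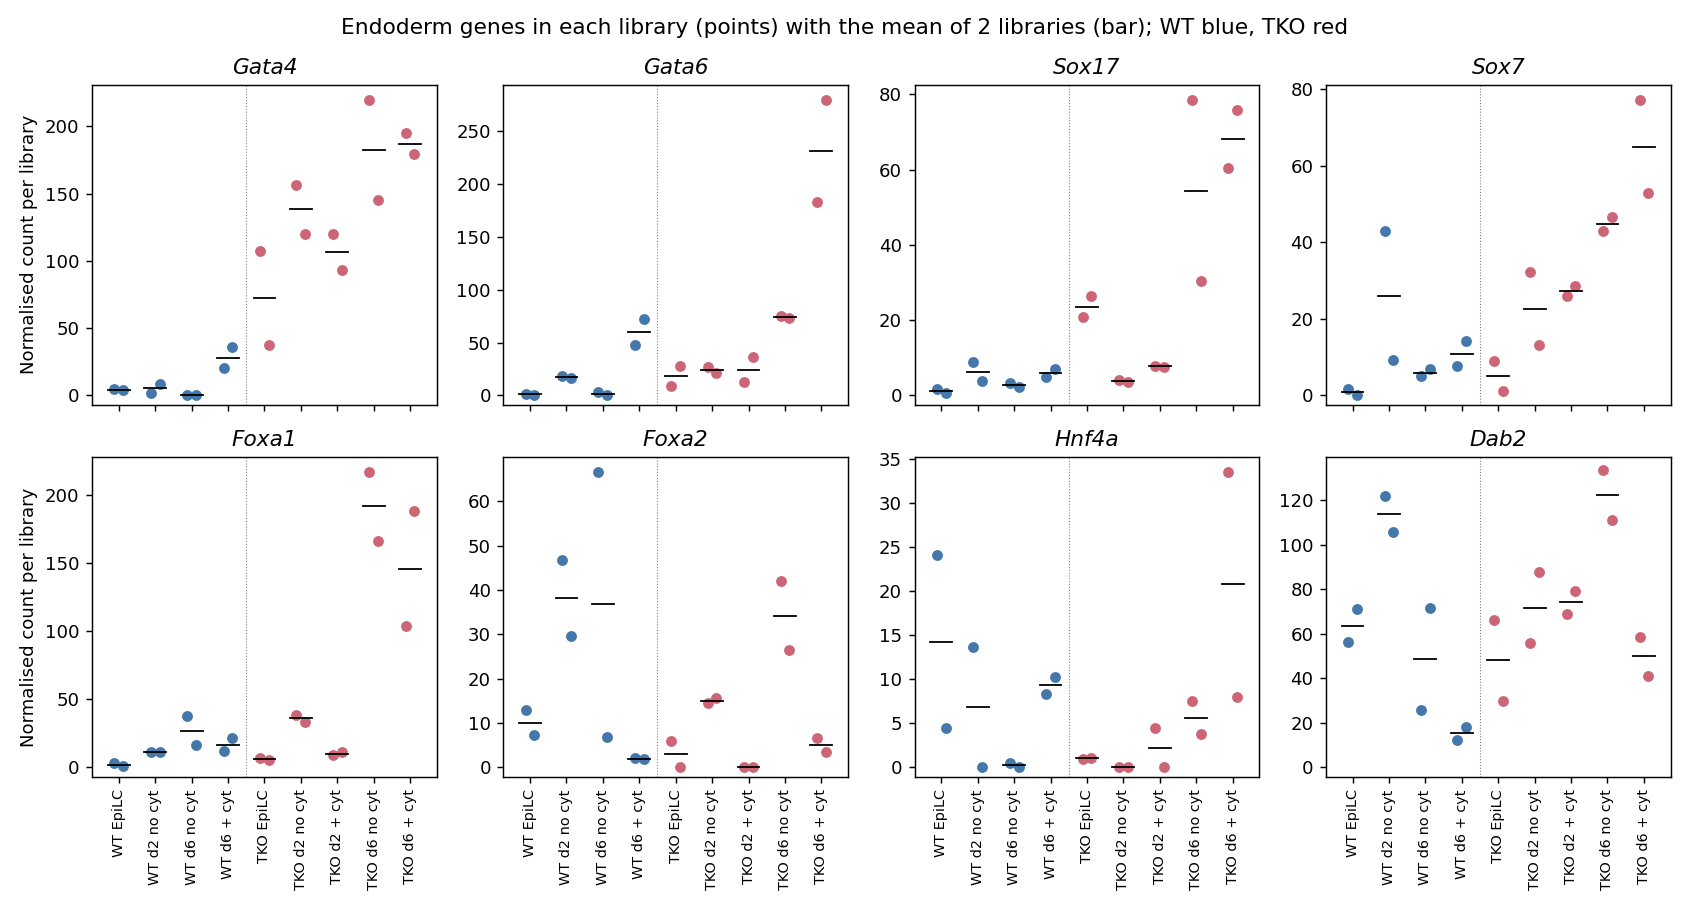
Normalised count of each of the 8 endoderm genes (y axis, linear, with its own scale in each panel) in the 2 libraries (points) and their mean (bar) of 9 conditions, wild type in blue and TKO in red. Gata4 is above 37 normalised counts in all TKO libraries and at most 36.0 in wild-type libraries, while Foxa2, Hnf4a and Dab2 show no such separation.

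Promoter sequences from RefSeq (GRCm38.p6), 250 bases before to 50 after a gene start, were available for 4 of the 8 members, with 8 entries. They were searched on both strands for 3 core motifs of the members' own protein families, of which the GATA letters are AGATAA and read TTATCT on the other strand. The forkhead letters are TGTTTAC, on the other strand reading GTAAACA, and the SOX letters are AACAAT, which on the other strand read ATTGTT. Of 32851 promoters in the same table, 11.2% held the GATA letters, 3.65% the forkhead letters and 10.7% the SOX letters. The single entry of Foxa1 held the forkhead letters. The GATA letters stood in 1 of the 3 entries of Foxa2, 1 of the 2 of Hnf4a and 1 of the 2 of Dab2, the last in the 50 bases after the start, and none held the SOX letters. The 250 bases before the start are shown 5′ to 3′ for the entries with a match there, to show these letters in their context at genes whose levels are given above, with the matching letters in capitals. They lie at chr12:57546112-57546361 (minus strand), chr2:148045465-148045714 (minus strand) and chr2:163506607-163506856 (plus strand). The Foxa1 and Foxa2 windows precede internal starts and lie within the annotated genes, which on the minus strand begin at chr12:57548029 and chr2:148046969. The Foxa2 entry before that outermost start (chr2:148046970-148047219) held no match.
Foxa1: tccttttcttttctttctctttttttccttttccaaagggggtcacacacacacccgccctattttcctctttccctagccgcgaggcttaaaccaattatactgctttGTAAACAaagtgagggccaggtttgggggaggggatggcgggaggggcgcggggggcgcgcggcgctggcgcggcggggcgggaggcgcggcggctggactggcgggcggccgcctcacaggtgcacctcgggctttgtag
Foxa2: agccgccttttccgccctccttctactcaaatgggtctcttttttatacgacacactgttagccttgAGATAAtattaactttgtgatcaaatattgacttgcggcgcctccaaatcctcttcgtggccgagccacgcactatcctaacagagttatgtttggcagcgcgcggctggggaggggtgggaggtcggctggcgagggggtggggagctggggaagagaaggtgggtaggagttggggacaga
Hnf4a: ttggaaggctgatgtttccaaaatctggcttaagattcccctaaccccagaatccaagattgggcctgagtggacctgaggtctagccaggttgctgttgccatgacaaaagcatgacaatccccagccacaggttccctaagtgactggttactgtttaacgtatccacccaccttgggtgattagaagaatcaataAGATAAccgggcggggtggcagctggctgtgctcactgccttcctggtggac
A match only describes these letters, and a window without one says nothing about the factor.

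TKO EpiLCs held more Gata4, Gata6 and Sox17 than wild-type EpiLCs, before any aggregate was formed. Gata4 rose by a log2 fold change of 4.10 (SE 0.64, adjusted p = 0.00128 by edgeR's quasi-likelihood test, n = 2 libraries a group). With both wild-type libraries at 3 counts or fewer, Gata6 was at least 5.61-fold higher (adjusted p = 0.0132 by the edgeR test) and Sox17 at least 7.28-fold higher (adjusted p = 0.0021 by the edgeR test). Such bounds compare the mean of 2 libraries with a floor of 3 counts and leave out the spread between replicates. Sox7, Foxa1 and Hnf4a were not called, with log2 fold changes of 3.26, 1.81 and -3.43 and adjusted p of 0.16, 0.154 and 0.185 by edgeR. Their 95% intervals, not adjusted for the number of genes, were 0.22 to 6.30, 0.15 to 3.46 and -6.81 to -0.05. These values depend on the prior count of the fit, and the Sox7 libraries of the genotypes overlapped. The log2 fold changes of Foxa2 and Dab2 were -1.55 and -0.39, with adjusted p of 0.41 and 0.649. A gene is called here where its adjusted p over all 16582 tested genes was below 0.05, and 3 of 8 members were called, all higher, against 10.8% of all genes in either direction. The members' median log2 fold change was 2.53, or 0.78 with genes at the floor of 3 counts set to their bound, beside 0.04 over all genes. The share of Rn45s was 47.6 and 40.7% in wild-type and 33.1 and 37.3% in TKO EpiLCs, without overlap. Nor did the genotypes overlap in it at day 2 without cytokines (21.5 and 31.3% against 16.2 and 20.9%) or at day 6 with cytokines (33.7 and 36.4% against 37.3 and 37.0%), and its part in the differences between genotypes was not tested. In whole cultures such as these, fewer cells of a type and less RNA per cell cannot be told apart. Gata4 remained called without any 1 of the 4 libraries. Sox17 lost its call without wild-type replicate 2 (log2 fold change 3.82, adjusted p = 0.0686 by edgeR). Gata6 lost it without wild-type replicate 1 (4.78, adjusted p = 0.0548), wild-type replicate 2 (3.44, adjusted p = 0.186) or TKO replicate 2 (3.25, adjusted p = 0.11).

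At day 2 without cytokines only Gata4 and Foxa1 were called higher in TKO aggregates. Gata4 had a log2 fold change of 4.59 (SE 0.61, adjusted p = 5.05e-05 by edgeR), from 5.25 ± 4.66 normalised counts in wild type to 138.4 ± 25.9 in TKO (mean ± SD, n = 2). Foxa1 rose from 11.7 ± 0.031 to 36.0 ± 3.37, a log2 fold change of 1.59 (SE 0.50, adjusted p = 0.0245 by edgeR). Gata6, Sox17, Sox7, Foxa2 and Dab2 had log2 fold changes of 0.45, -0.68, -0.19, -1.36 and -0.70, none of them called, with 95% intervals of -0.88 to 1.78 for Gata6, -2.18 to 0.82 for Sox17 and -1.74 to 1.36 for Sox7. Hnf4a was at 0 in both TKO libraries and at 13.65 and 0 in wild type (adjusted p = 0.0957 by edgeR). The 2 of 8 members called compare with 32.8% of all genes, and the members' median of -0.44 with 0.00. Gata4 remained called without any 1 library. Foxa1 lost its call without wild-type replicate 1 (log2 fold change 1.57, adjusted p = 0.0945), wild-type replicate 2 (1.59, adjusted p = 0.119), TKO replicate 1 (1.48, adjusted p = 0.113) or TKO replicate 2 (1.68, adjusted p = 0.0623). Hnf4a was called lower without wild-type replicate 2 (-6.90, adjusted p = 0.0327), by DESeq2 (adjusted p = 0.0474) and without the filter on low counts (adjusted p = 0.0424). In a fit of the compared libraries alone Foxa2 was called lower in TKO aggregates (-1.33, adjusted p = 0.034), where 45.5% of all genes were called.

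By day 6 without cytokines, 6 of the 8 genes were higher in TKO aggregates, and the difference was largest for Gata4. Gata4 was at least 75.5-fold higher against wild-type libraries with 1 and 0 counts (adjusted p = 6.59e-07 by edgeR). Gata6 rose by a log2 fold change of 4.90 (SE 0.74, adjusted p = 5.62e-05 by edgeR) and Sox17 by 4.22 (SE 0.62, adjusted p = 4.17e-05 by edgeR). Sox7 rose by 2.96 (SE 0.80), Foxa1 by 2.79 (SE 0.46) and Dab2 by 1.39 (SE 0.47), with adjusted p of 0.00565, 0.000127 and 0.0202. Foxa2 had a log2 fold change of -0.14 (95% interval -1.83 to 1.55, adjusted p = 0.895 by edgeR). Hnf4a was not called (3.77, 95% interval -0.16 to 7.70, adjusted p = 0.0953 by edgeR), a value that depends on the prior count. With the replicate number as a block Hnf4a was called higher (log2 fold change 4.10, adjusted p = 0.0368 by edgeR), beside 55.2% of all genes. The 6 calls stand beside 55.4% of all genes called in this comparison, and the members' median was 3.36, or 2.87 with bounds, beside 0.01. A fit of the compared libraries alone called 37.6% of all genes. Without wild-type replicate 1, which held 147 Foxa2 counts against 6 in replicate 2, Foxa2 changed direction and was called higher (log2 fold change 2.30, adjusted p = 0.0425 by edgeR). Dab2 lost its call without wild-type replicate 1 (0.79, adjusted p = 0.158) or TKO replicate 1 (1.24, adjusted p = 0.0972), and in a fit of the compared libraries alone (1.42, adjusted p = 0.119), and the other 5 calls remained without any 1 library. Gata6 had no count in wild-type replicate 2, so that its log2 fold change was 9.23 without replicate 1, a value that depends on the prior count, and 4.34 without replicate 2.

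At day 6 with cytokines, the same 6 genes were called higher in whole TKO aggregates than in sorted wild-type cells, but against 18.9% of all genes called. Sox17 rose from 5.97 ± 1.56 to 68.1 ± 10.8 normalised counts (mean ± SD, n = 2), a log2 fold change of 3.48 (SE 0.56, adjusted p = 0.000753 by edgeR). Foxa1 rose by 3.10 (SE 0.48, adjusted p = 0.000508 by edgeR) and Gata4 by 2.72 (SE 0.51, adjusted p = 0.00198 by edgeR). Sox7 rose by 2.55 (SE 0.74), Gata6 by 1.94 (SE 0.56) and Dab2 by 1.69 (SE 0.51), with adjusted p of 0.0267, 0.0246 and 0.0316. Foxa2 (log2 fold change 1.23, 95% interval -1.46 to 3.92, adjusted p = 0.542 by edgeR) and Hnf4a (log2 fold change 1.10, adjusted p = 0.534 by edgeR) were not called. The members' median was 2.25 beside 0.05 over all genes. Gata4, Sox17 and Foxa1 remained called without any 1 library. Gata6 lost its call without wild-type replicate 1 (1.68, adjusted p = 0.194), wild-type replicate 2 (2.26, adjusted p = 0.0789) or TKO replicate 2 (1.61, adjusted p = 0.135). Sox7 lost it without wild-type replicate 1 (2.18, adjusted p = 0.198), wild-type replicate 2 (3.06, adjusted p = 0.0794) or TKO replicate 1 (2.25, adjusted p = 0.127). Dab2 lost its call without any 1 of the 4 libraries, at log2 fold changes of 1.42 to 1.97 and adjusted p of 0.0509 to 0.203.

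**Figure D2:**
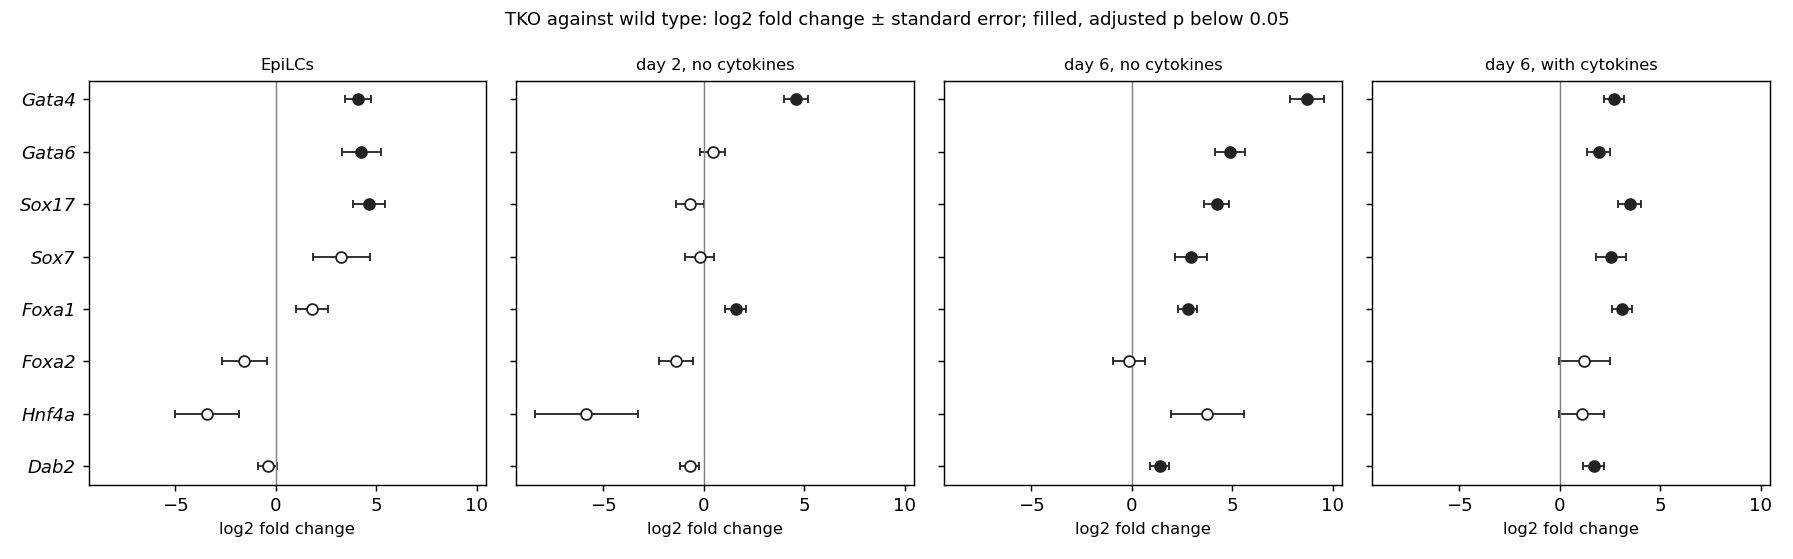
Log2 fold change of each endoderm gene in TKO against wild-type cells (x axis, the same scale in all panels) with its standard error, in EpiLCs, at day 2 and day 6 without cytokines and at day 6 with cytokines, where the wild-type cells were sorted. Filled points have an adjusted p below 0.05: 3, 2, 6 and 6 genes, all to the right of 0, while Foxa2 and Hnf4a are open in all 4 panels and those of genes at the floor of 3 counts depend on the fit's prior count.

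In TKO cells no member was called between media with and without cytokines by edgeR as fitted for all comparisons, at either day, while several were under other settings. At day 2, where 4.52% of all genes were called, 0 of 8 members were called by edgeR and 2 had an unadjusted p below 0.05. These were Foxa1, with a log2 fold change of -1.81 (95% interval -2.93 to -0.68, adjusted p = 0.0616 by edgeR), and Foxa2, at least 4.23-fold lower with cytokines (adjusted p = 0.0576 by edgeR). DESeq2 called both, with adjusted p of 0.0335 and 0.0104, and so did edgeR without the filter on low counts, with library size alone and in a fit of the compared libraries alone. The share of all genes called rose as well, to 9.69% by DESeq2, 6.43% without the filter, 16.7% with library size alone and 21% in the fit of the compared libraries. With the replicate number as a block, Foxa2 was called (adjusted p = 0.0364). For the primitive endoderm factors the intervals at day 2 were -1.37 to 0.65 for Gata4, -0.53 to 2.49 for Sox17 and -1.30 to 1.83 for Sox7. Gata6 had a log2 fold change of -0.0001, and its interval is left out, since a standard error taken from the F statistic is unreliable for so small a change. Its libraries were at 12.5 and 36.0 normalised counts with and 27.0 and 21.6 without cytokines. The members' median was 0.03, or 0.00 with bounds, beside -0.03 over all genes.

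At day 6, where 5.61% of all genes were called between TKO aggregates with and without cytokines, edgeR again called 0 of 8 members and 3 had an unadjusted p below 0.05. Gata6 was at 231.6 ± 68.6 normalised counts with and 74.3 ± 1.54 without cytokines (log2 fold change 1.66, 95% interval 0.47 to 2.84, adjusted p = 0.0938 by edgeR). Foxa2 had a log2 fold change of -2.77 (95% interval -4.94 to -0.61, adjusted p = 0.122 by edgeR) and Dab2 of -1.28 (-2.30 to -0.27, adjusted p = 0.125 by edgeR). DESeq2 called 1 member, Gata6 (adjusted p = 0.0362). Without the filter edgeR called Gata6 and Foxa2 (adjusted p = 0.0346 and 0.0446), with library size alone Foxa2 and Dab2 (0.0328 and 0.021), and in a fit of the compared libraries alone Gata6, Foxa2 and Dab2 (0.00454, 0.0145 and 0.0241). In these 4 settings 9.84%, 6.14%, 19.6% and 12.8% of all genes were called. Gata4 differed by 0.05 (95% interval -0.95 to 1.04), Sox17 by 0.33 (-0.71 to 1.38), Sox7 by 0.54 (-0.93 to 2.02) and Foxa1 by -0.37 (-1.29 to 0.54), intervals that still allow differences of several-fold for Sox7. The share of Rn45s, which was 17.5 and 18.4% in the day 6 TKO libraries without and 37.3 and 37.0% in those with cytokines, moved with the medium, and its part in these values was not tested. The members' median was 0.19 beside 0.03.

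In the wild-type comparison at day 6, cells with cytokines were sorted and those without were whole aggregates. Gata4 was at least 11.6-fold higher in the sorted cells (adjusted p = 3.92e-05 by edgeR), Gata6 rose by a log2 fold change of 4.62 (SE 0.74, adjusted p = 7.11e-05 by edgeR) and Hnf4a was at least 3.86-fold higher (adjusted p = 0.0333 by edgeR). Foxa2 had a log2 fold change of -4.14 (95% interval -6.30 to -1.98, adjusted p = 0.00275 by edgeR), with 3 counts in each sorted library. Dab2 fell by 1.58 on the log2 scale (adjusted p = 0.0134 by edgeR). The 5 of 8 called stand beside 58.2% of all genes, and the median of 1.01 beside 0.01. Gata4 and Gata6 remained called without any 1 library, Gata6 at 8.94 without replicate 1 of the aggregates without cytokines and 4.05 without replicate 2. Foxa2 lost its call without replicate 1 of the aggregates without cytokines (log2 fold change -1.70, adjusted p = 0.193). Dab2 lost it without replicate 2 of those aggregates (-0.71, adjusted p = 0.216) or replicate 1 of the sorted cells (-1.35, adjusted p = 0.0973). Hnf4a lost it without any 1 of the 4 libraries (4.09 to 6.27, adjusted p of 0.06 to 0.112). In a fit of the compared libraries alone, where 41.8% of all genes were called, Foxa2 (-4.19, adjusted p = 0.0503 by edgeR) and Dab2 (-1.62, adjusted p = 0.105 by edgeR) were not called. Foxa1 was called lower without replicate 2 of the aggregates without cytokines (-1.12, adjusted p = 0.0459), and stood at 0.10 without replicate 1.

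The difference of the cytokine effect between genotypes at day 6 was tested as an interaction, which was called for Gata4 (-6.00, SE 1.06, adjusted p = 0.00037 by edgeR) and Gata6 (-2.96, SE 0.92, adjusted p = 0.0168 by edgeR). In both, the difference between media was smaller in TKO cells than in wild-type cells, where the cells with cytokines were sorted and Gata4 without cytokines was at the floor, so that its fitted value depends on the prior count. The 2 of 8 members called compare with 42.9% of all genes, and the median of -0.58 with 0.02. Without replicate 1 of the wild-type aggregates without cytokines the members' median was -1.06, and without replicate 2 it was -0.61. The Gata4 call remained without any 1 of the 8 libraries, and the Gata6 call was lost without replicate 2 of the sorted wild-type cells (-2.64, adjusted p = 0.0559) or replicate 1 of the TKO aggregates with cytokines (-2.70, adjusted p = 0.0577). The Gata6 value was -7.28 without replicate 1 of the wild-type aggregates without cytokines, which leaves a library with no Gata6 count, and -2.39 without replicate 2. Of the members not called, Foxa2 turned from 1.37 to -1.08 and Foxa1 from 0.32 to -0.47 without that replicate 1, and Dab2 from 0.30 to -0.58 without replicate 2.

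**Figure D3:**
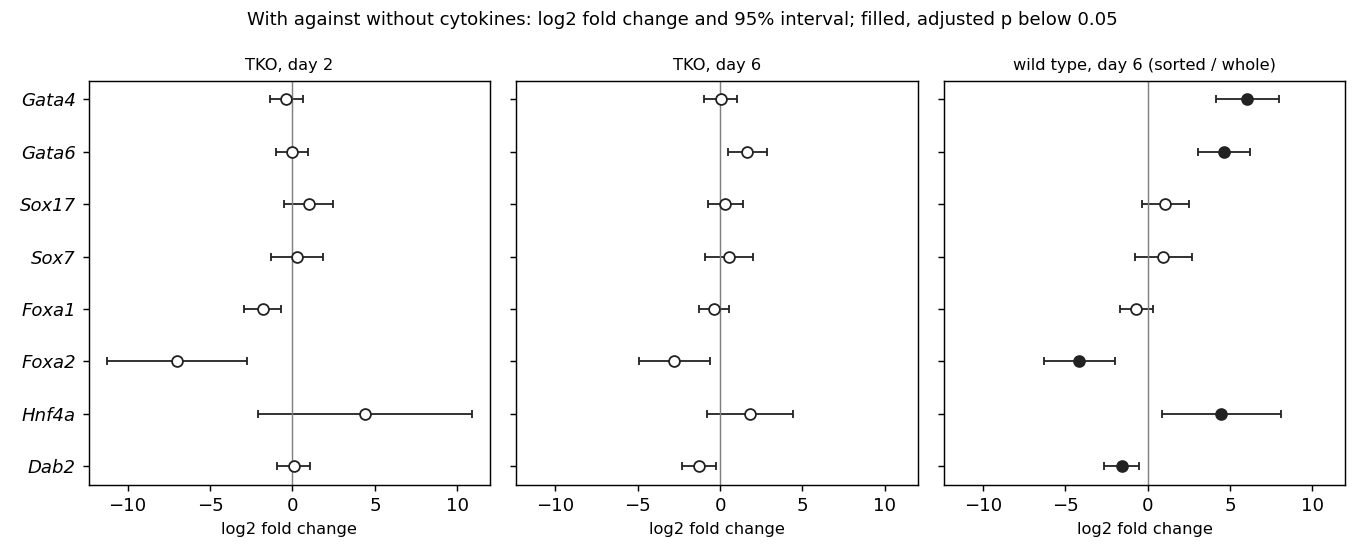
Log2 fold change with against without cytokines (x axis, the same scale in all panels) and its 95% interval for each endoderm gene in TKO cells at day 2 and day 6 and in wild-type cells at day 6, where the cells with cytokines were sorted. Filled points have an adjusted p below 0.05: none in TKO cells and 5 in wild-type cells, with Gata4, Gata6 and Hnf4a to the right of 0 and Foxa2 and Dab2 to the left. The interval drawn for Gata6 in TKO cells at day 2 is unreliable, because its log2 fold change was very small.

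Along the wild-type course without cytokines, Gata6 and Sox7 rose by day 2 and fell again by day 6, whereas Foxa1 was higher at both times. From EpiLCs to day 2, with EpiLC libraries at 3 counts or fewer, Gata6 was at least 5.37-fold, Sox17 at least 1.95-fold, Sox7 at least 8.05-fold and Foxa1 at least 3.60-fold higher, with adjusted p of 0.00362, 0.0235, 0.0024 and 0.00813 by edgeR. These 4 of 8 calls compare with 34.4% of all genes, and the median of 2.38, or 1.41 with bounds, with 0.02. All 4 were lost without EpiLC replicate 2, the deepest library, at log2 fold changes of 1.89 to 3.96 and adjusted p of 0.0609 to 0.256, and Sox17 also without day 2 replicate 1 (2.10, adjusted p = 0.165) and by DESeq2 (adjusted p = 0.0556). Foxa2 was called higher as well with library size alone (2.63, adjusted p = 0.0244), without the filter (2.04, adjusted p = 0.0403) and in a fit of the compared libraries alone (2.07, adjusted p = 0.0089). Dab2 was called higher in the first (1.44, adjusted p = 0.0232) and the last of these (0.85, adjusted p = 0.0355). The share of all genes called was 45.5%, 26% and 46.9% in these settings.

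From day 2 to day 6 without cytokines, 4 of 8 members fell in wild-type cells, beside 39.5% of all genes called. Gata6 fell by 2.84 on the log2 scale (SE 0.77, adjusted p = 0.0083 by edgeR), Sox7 by 2.18 (SE 0.80, adjusted p = 0.0423 by edgeR) and Dab2 by 1.31 (SE 0.47, adjusted p = 0.0363 by edgeR). Gata4 was at least 2.17-fold lower (adjusted p = 0.0151 by edgeR). The median was -1.74, or -1.22 with bounds, beside 0.01. Gata6 remained called without any 1 library, at -7.16 without day 6 replicate 1 and -2.27 without day 6 replicate 2, but Gata4 lost its call without day 2 replicate 2 (-2.25, adjusted p = 0.289) or day 6 replicate 1 (-5.54, adjusted p = 0.0917). Sox7 lost its call without day 2 replicate 1 (-0.75, adjusted p = 0.571), day 6 replicate 1 (-1.90, adjusted p = 0.176) or day 6 replicate 2 (-2.37, adjusted p = 0.0505). For Dab2 the call was lost without day 2 replicate 1 (-1.22, adjusted p = 0.122), day 2 replicate 2 (-1.39, adjusted p = 0.0787) or day 6 replicate 1 (-0.70, adjusted p = 0.257). Calls were gained by Hnf4a without day 2 replicate 2 (-4.99, adjusted p = 0.0256), Foxa2 without day 6 replicate 1 (-2.47, adjusted p = 0.0456) and Foxa1 without day 6 replicate 2 (1.65, adjusted p = 0.0107). Foxa2 stood at -0.03 with all libraries and at 0.76, not called, without day 6 replicate 2. Hnf4a was also called lower with the replicate number as a block (-4.03, adjusted p = 0.0456) and without the filter on low counts (-3.97, adjusted p = 0.0444). In a fit of the compared libraries alone, where 17% of all genes were called, Gata6 (-2.94, adjusted p = 0.0968), Sox7 (-2.19, adjusted p = 0.147) and Dab2 (-1.31, adjusted p = 0.18) lost their calls. With library size alone Sox7 (-2.13, adjusted p = 0.0529) and Dab2 (-1.20, adjusted p = 0.0623) lost theirs.

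Over the whole interval from EpiLCs to day 6 without cytokines, Foxa1 was at least 8.37-fold (adjusted p = 0.000106 by edgeR) and Sox7 at least 1.84-fold higher in wild-type cells (adjusted p = 0.0421 by edgeR). Hnf4a was at least 5.90-fold (adjusted p = 0.0225 by edgeR) and Gata4 at least 1.80-fold lower (adjusted p = 0.0239 by edgeR). The 4 of 8 calls, 2 in each direction, compare with 60.7% of all genes, and scaling by library size alone gave 3 higher and 1 lower, with Gata4 not called (-2.71, adjusted p = 0.0618). The median of 1.498 was 0.00 with bounds, beside 0.05 over all genes. Foxa1 remained called without any 1 library. Gata4 lost its call without any 1 of the 4 (-5.09 to -2.92, adjusted p of 0.0535 to 0.105). Sox7 lost it without EpiLC replicate 2 (1.78, adjusted p = 0.379), day 6 replicate 1 (3.67, adjusted p = 0.0696) or day 6 replicate 2 (3.22, adjusted p = 0.077). Hnf4a lost it without EpiLC replicate 1 (-3.41, adjusted p = 0.153), day 6 replicate 1 (-6.61, adjusted p = 0.0904) or day 6 replicate 2 (-4.43, adjusted p = 0.0521). Neither Foxa2 nor Gata6 was called by edgeR as fitted for all comparisons, but Foxa2 was called higher with library size alone (2.69, adjusted p = 0.0139), where 63.5% of all genes were called, and without the filter on low counts (2.01, adjusted p = 0.0244), where 45.7% were. Without day 6 replicate 1 the log2 fold change of Foxa2 turned from 2.01 to -0.41, that of Gata6 from 1.38 to -2.94 and the members' median to -0.13, and Dab2, also not called, from -0.44 to 0.16. Without day 6 replicate 2, Foxa2 was called higher (2.82, adjusted p = 0.00198) and Dab2 lower (-1.32, adjusted p = 0.0236).

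Sorted wild-type day 6 cells held more of 5 members than EpiLCs and less Dab2. Gata6 was at least 18.5-fold higher (adjusted p = 0.000117 by edgeR), Foxa1 at least 5.19-fold (adjusted p = 0.00158), Sox7 at least 3.36-fold (adjusted p = 0.013) and Sox17 at least 1.84-fold (adjusted p = 0.0202). Gata4 rose by a log2 fold change of 2.75 (SE 0.65, adjusted p = 0.00374 by edgeR). Dab2 fell by 2.02 on the log2 scale (SE 0.50, adjusted p = 0.00491 by edgeR). The 6 of 8 called compare with 40.6% of all genes, and the median of 2.72, or 1.31 with bounds, with 0.07. Without EpiLC replicate 2, the calls of Gata4 (2.58, adjusted p = 0.0626), Sox17 (1.88, adjusted p = 0.25), Sox7 (2.74, adjusted p = 0.197) and Foxa1 (2.41, adjusted p = 0.0598) were lost. Sox17 (2.39, adjusted p = 0.0973) and Sox7 (3.83, adjusted p = 0.0687) also lost them without replicate 2 of the sorted cells, and Dab2 without replicate 1 of the sorted cells (-1.79, adjusted p = 0.0516). DESeq2 did not call Sox17 (2.81, adjusted p = 0.0517).

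In TKO cells, Foxa1 and Sox17 were the members with called changes from day 2 to day 6 in both media. Without cytokines Sox17 rose by a log2 fold change of 3.78 (SE 0.63, adjusted p = 0.0108 by edgeR) and Foxa1 by 2.42 (SE 0.46, adjusted p = 0.0295 by edgeR), 2 of 8 members in a comparison with 79 genes called, 0.476% of all tested. That background moved with the setting, from 1 to 31 genes without any 1 library to 245 (1.6%) by DESeq2 and 1148 (7.66%) in a fit of the compared libraries alone, where Gata6 was called too (1.60, adjusted p = 0.0108). With cytokines Foxa1 rose by 3.85 (SE 0.52, adjusted p = 0.000615 by edgeR), Gata6 by 3.27 (SE 0.61, adjusted p = 0.00513 by edgeR) and Sox17 by 3.13 (SE 0.58, adjusted p = 0.00473 by edgeR), 3 of 8 members beside 6% of all genes. Gata4, already high at day 2, had log2 fold changes of 0.40 (95% interval -0.59 to 1.40) without and 0.81 (-0.20 to 1.82) with cytokines. The medians were 1.40 without cytokines, or 1.08 with bounds, beside 0.02, and 3.09 with cytokines, or 2.15 with bounds, beside 0.03. Without cytokines Sox17 lost its call without day 2 replicate 1 (3.90, adjusted p = 0.204), day 2 replicate 2 (3.68, adjusted p = 0.248) or day 6 replicate 1 (2.92, adjusted p = 0.21). Foxa1 lost it without any 1 of the 4 libraries (2.20 to 2.60, adjusted p of 0.0903 to 0.491). With cytokines Gata6 (2.68, adjusted p = 0.101) and Sox17 (3.18, adjusted p = 0.0701) lost theirs without day 2 replicate 1.

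From EpiLCs to day 2, TKO cells without cytokines gained Foxa1 (log2 fold change 2.50, SE 0.55, adjusted p = 0.00721 by edgeR) and lost Sox17 (-2.58, SE 0.64, adjusted p = 0.0133 by edgeR). These 2 of 8 calls compare with 18.7% of all genes, and the median of 0.74 with 0.04, while scaling by library size alone gave 3 higher and 1 lower, adding Gata4 (1.41, adjusted p = 0.0399) and Sox7 (2.62, adjusted p = 0.0336). The Foxa1 call was lost without EpiLC replicate 2 (2.35, adjusted p = 0.0569). That of Sox17 was lost without EpiLC replicate 2 (-2.39, adjusted p = 0.0605), day 2 replicate 1 (-2.69, adjusted p = 0.0893) or day 2 replicate 2 (-2.48, adjusted p = 0.0938). Gata4 was called higher without EpiLC replicate 1 (1.87, adjusted p = 0.0433). With cytokines edgeR called 0 of 8 members beside 14.3% of all genes, and 2 had an unadjusted p below 0.05, Sox7 (2.39, adjusted p = 0.0759) and Sox17 (-1.60, adjusted p = 0.0848). DESeq2 called Sox7 (adjusted p = 0.0412), and so did edgeR without the filter on low counts (2.38, adjusted p = 0.0331) and without EpiLC replicate 1 (4.49, adjusted p = 0.0465). The median was 0.59, or 0.49 with bounds, beside 0.00.

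The change from EpiLCs to day 6 without cytokines differed between genotypes for 3 members, Gata4 (interaction 4.62, SE 1.26, adjusted p = 0.0094 by edgeR), Hnf4a (7.20, SE 2.42, adjusted p = 0.0308 by edgeR) and Dab2 (1.78, SE 0.66, adjusted p = 0.0473 by edgeR), each more positive in TKO cells. The fitted values of Gata4 and Hnf4a depend on the prior count, because wild-type cells at day 6 were at the floor. This compares with 37% of all genes called, and the median of 1.20 with -0.02. Without wild-type day 6 replicate 1 the members' median was 2.79, and without replicate 2 it was 0.56. For Gata6, Sox17, Sox7 and Foxa1, which were higher in TKO cells at day 6, the interaction was 0.64, -0.41, -0.30 and 0.98 with adjusted p of 0.829, 0.761, 0.855 and 0.575. These 4 genes were at the floor in wild-type EpiLCs, so their values depend on the prior count too, and that of Gata6 ranged from 0.03 to 4.97 without 1 library. The Gata4 call remained without any 1 of the 8 libraries. Hnf4a lost its call without replicate 1 of the wild-type EpiLCs (5.75, adjusted p = 0.106), of the wild-type day 6 aggregates (8.94, adjusted p = 0.0631), of the TKO EpiLCs (7.12, adjusted p = 0.0764) or of the TKO day 6 aggregates (6.62, adjusted p = 0.114), or without replicate 2 of the TKO EpiLCs (7.27, adjusted p = 0.068). Dab2 lost its call without either wild-type EpiLC library (1.94 and 1.56, adjusted p = 0.0644 and 0.146), wild-type day 6 replicate 1 (1.18, adjusted p = 0.13), TKO EpiLC replicate 2 (1.32, adjusted p = 0.159) or either TKO day 6 library (1.62 and 1.90, adjusted p = 0.126 and 0.0736). It also lost the call with the replicate number as a block (1.78, adjusted p = 0.0539), with library size alone (1.62, adjusted p = 0.0792) and in a fit of the compared libraries alone (1.75, adjusted p = 0.136). Foxa2 was called without wild-type day 6 replicate 1 (3.83, adjusted p = 0.024).

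The make-up of the summed endoderm signal differed between conditions. The 8 genes summed to 106.0 and 88.9 normalised counts in the wild-type EpiLC libraries, where Dab2 was the main part, and to 817.3 and 603.3 in the day 6 TKO libraries without cytokines, where Gata4, Foxa1 and Dab2 were the largest. In the day 6 TKO libraries with cytokines they summed to 719.0 and 828.9, with Gata6, Gata4 and Foxa1 the largest, against 115.4 and 181.5 in sorted wild-type cells. Per kilobase of merged exons, the levels in day 6 TKO cells with cytokines were 71.6 normalised counts for Gata6, 55.0 for Gata4, 45.8 for Foxa1, 19.7 for Sox7, 16.6 for Sox17, 10.5 for Dab2, 4.78 for Hnf4a and 2.33 for Foxa2. Without cytokines the same scale put Foxa1 first at 60.2 and Gata4 next at 53.7, with Dab2 at 25.6, Gata6 at 23.0, Foxa2 at 15.7, Sox7 at 13.6, Sox17 at 13.3 and Hnf4a at 1.30.

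**Figure D4:**
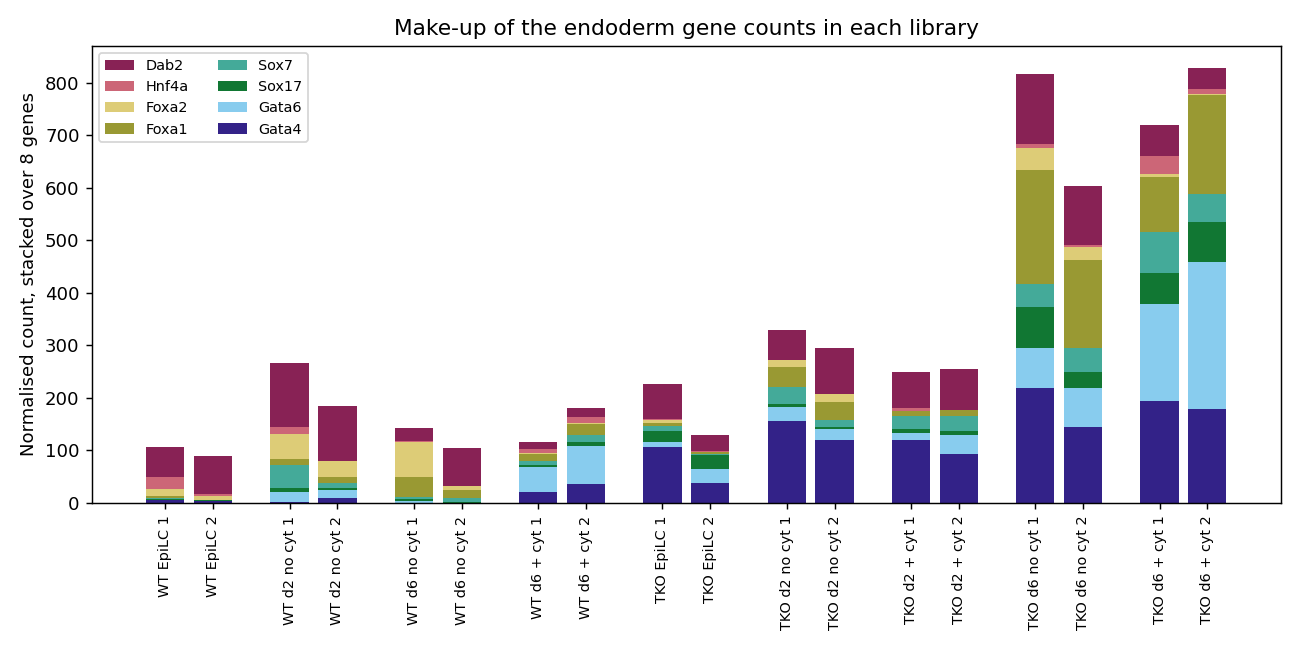
Normalised counts of the 8 endoderm genes stacked in each of the 18 libraries (y axis, from 0; genes differ in length, so heights compare libraries rather than genes). The 4 day 6 TKO libraries reach 603.3 to 828.9, and Foxa2 and Dab2 take a smaller part of them with than without cytokines.

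Other genes of the endoderm lineages were counted from lists made from general knowledge, with earlier results of these data known. Of 24 extraembryonic endoderm genes, which include the basement membrane genes of parietal endoderm and the transport genes of visceral endoderm, 20 were tested. In TKO against wild-type EpiLCs 3 were higher and none lower, at day 2 without cytokines 7 were higher and 4 lower, at day 6 without cytokines 9 higher and 2 lower, and at day 6 with cytokines 7 higher and none lower. Their medians were 0.31, 0.78, 0.96 and 1.11, the first and second being 0.24 and 0.73 with bounds, beside 0.04, 0.00, 0.01 and 0.05 over all genes. The share of all genes called was 10.8%, 32.8%, 55.4% and 18.9% in these comparisons, and the 11 of 20 called at day 6 without cytokines are close to that background. Without wild-type replicate 1 they were 8 higher and 5 lower, and without replicate 2 they were 13 higher and 2 lower. Their median there was 1.55 without wild-type replicate 1 and 1.53 without replicate 2, in place of 0.96. At day 6 with cytokines the basement membrane collagen genes Col4a1 (log2 fold change 3.28, adjusted p = 8.03e-05 by edgeR) and Col4a2 (3.25, adjusted p = 0.00032 by edgeR) were higher in TKO cells. So were the endocytic receptor Lrp2 (1.90, adjusted p = 0.0113 by edgeR) and the growth factor receptor Pdgfra (1.68, adjusted p = 0.0295 by edgeR). At day 2 without cytokines, by contrast, Col4a1 (-1.78, adjusted p = 0.0024 by edgeR) and Lrp2 (-1.74, adjusted p = 0.00858 by edgeR) were lower in TKO aggregates and Plat was at least 40.9-fold lower (adjusted p = 0.000507 by edgeR), while Nid1 was higher (2.13, adjusted p = 0.000425 by edgeR). At day 6 without cytokines the basement membrane genes Nid1 (3.58, adjusted p = 1.85e-06 by edgeR) and Lamb1 (3.51, adjusted p = 3.09e-07 by edgeR) were higher. Lower there were Lama1 (-2.87, adjusted p = 3.11e-05 by edgeR) and Plat (-2.53, adjusted p = 0.00827 by edgeR). The list summed to 22217.0 and 23792.8 normalised counts in day 6 TKO aggregates with cytokines and 10632.6 and 13835.6 in sorted wild-type cells. Of the secreted visceral endoderm products, Afp was at 0 in all 8 day 6 libraries and Ttr at 0 in both day 6 TKO libraries with cytokines, at 53.8 and 56.8 in those without.

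In day 6 TKO aggregates 2 of these 20 genes were higher with than without cytokines and none was lower, beside 5.61% of all genes called. They were Lama1 (log2 fold change 1.93, adjusted p = 0.012 by edgeR) and Col4a1 (1.62, adjusted p = 0.0222 by edgeR). Col4a1 was at 3709.0 and 4185.7 normalised counts with and 1514.0 and 1084.1 without cytokines, the same order as Gata6. Gata6 itself was not called there by edgeR as fitted for all comparisons. In the lists below all called genes were lower with cytokines: 2 of definitive endoderm, 2 of heart, 2 neural and 1 germ cell gene. They included Actc1 (-6.99, adjusted p = 0.000479 by edgeR), Pax6 (-2.46, adjusted p = 0.0134 by edgeR) and Prdm1 (-1.48, adjusted p = 0.0219 by edgeR). Lhx1 was at least 12.5-fold lower (adjusted p = 0.0323 by edgeR). No floor plate or endothelium gene was called.

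Of 16 definitive endoderm and gut genes, 14 were tested. In EpiLCs 4 were higher in TKO cells and none lower (median 1.07, or 0.67 with bounds), among them the mesendoderm regulator Eomes (2.86, adjusted p = 0.000216 by edgeR). Eomes was at 89.96 and 92.3 normalised counts in wild-type and 696.4 and 605.9 in TKO EpiLCs, without overlap, as for Gata4 and Sox17. At day 6 without cytokines 10 were higher and 4 lower (median 3.73, or 2.90 with bounds), with Hhex higher by 5.60 (adjusted p = 5.68e-07 by edgeR). Cxcr4 (-4.82, adjusted p = 6.53e-08 by edgeR) and Lhx1 (-4.77, adjusted p = 2.49e-05 by edgeR) were lower. At day 6 with cytokines 1 was higher and 2 were lower (median -0.33, or 0.09 with bounds), the latter Lhx1, at least 9.93-fold, and Cxcr4 (-2.27, adjusted p = 0.000733 by edgeR). At day 2 without cytokines 6 were higher and 3 lower (median 0.35). The background in these 4 comparisons is the same 10.8%, 55.4%, 18.9% and 32.8% of all genes, with all-gene medians of 0.04, 0.01, 0.05 and 0.00, and at day 6 without cytokines leaving out either wild-type library left 10 higher and 4 lower.

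Several members are shared with other cell types, so lists of those types were set beside them. The floor plate and ventral midbrain list, which goes with Foxa2, had 8 of 10 tested genes higher and none lower in wild-type cells from EpiLCs to day 6 without cytokines, beside 60.7% of all genes called. In TKO against wild-type aggregates at that time, beside 55.4%, it had none higher and 7 lower (median -2.19), or 4 lower (median -1.32) without wild-type replicate 1. The heart mesoderm list, which goes with Gata4 and Gata6, had 7 of 10 genes higher and 2 lower in day 6 TKO aggregates without cytokines (median 5.56, or 2.39 with bounds), 3 higher and none lower with cytokines (median 0.92), and 2 higher and 1 lower in EpiLCs (median 0.16, or 0.00 with bounds), beside 55.4%, 18.9% and 10.8% of all genes called. Without wild-type replicate 1 the count at day 6 without cytokines was 6 higher and none lower (median 6.66), and without replicate 2 it was 6 higher and 2 lower (median 5.11). Of this list, Hand1 was at least 50.7-fold higher in day 6 TKO aggregates without cytokines (adjusted p = 7.05e-06 by edgeR) and at least 11-fold higher in TKO EpiLCs (adjusted p = 0.00407 by edgeR). Its sarcomere gene Actc1 was at least 10.6-fold lower in TKO EpiLCs (adjusted p = 0.0245 by edgeR) and higher at day 6 without cytokines (6.02, adjusted p = 5.38e-06 by edgeR), where the cardiac factor Tbx20 was lower (-3.78, adjusted p = 0.0106 by edgeR). The endothelium list, which goes with Sox7 and Sox17, had 3 of 10 genes higher and 1 lower at day 6 without cytokines (median 0.39), none higher and 1 lower with cytokines (median -0.28) and none called in EpiLCs. The 4 of 10 called without cytokines are fewer than the 55.4% of all genes, and without wild-type replicate 1 they were 4 higher and none lower (median 2.06). Without wild-type replicate 2 the median of the endothelium list was -0.003. The leading gene of this list, Pecam1 (log2 fold change 5.56, adjusted p = 1.12e-07 by edgeR), is also made by pluripotent and germ cells. It was lower at day 6 with cytokines (-1.39, adjusted p = 0.0128 by edgeR). The endothelial receptor gene Tek was also higher (4.80, adjusted p = 1.56e-05 by edgeR), at 54.9 and 77.0 normalised counts in TKO and 2.27 and 2.32 in wild type, but at 91.6 and 78.4 in wild-type EpiLCs. The gene called lower was Tal1, a factor of blood and endothelium (-3.48, adjusted p = 0.00883 by edgeR). The endothelial cadherin Cdh5 was at 22.6 and 8.83 normalised counts in day 6 TKO aggregates without and 8.40 and 5.74 with cytokines. The germ cell list had 6 of 7 genes higher and none lower in day 6 TKO aggregates without cytokines (median 5.41) and none higher and 5 lower with cytokines against the sorted cells (median -1.47). It summed to 3351.2 to 4030.7 in the day 6 TKO libraries and 7842.8 to 9746.8 in the sorted cells. Of the neural list, all 7 genes were lower in day 6 TKO aggregates without cytokines (median -3.80). At day 6 with cytokines, against the sorted cells, 2 neural genes were higher, Tubb3 (1.94, adjusted p = 0.00127 by edgeR) and Nes (1.80, adjusted p = 0.00815 by edgeR), and Pax6 was lower (-1.71, adjusted p = 0.0321 by edgeR; median 0.92). The floor plate list had 2 higher there, among them Lmx1a (4.99, adjusted p = 0.00268 by edgeR), and 1 lower, Ntn1 (-2.30, adjusted p = 0.033 by edgeR), with a median of 0.46, or 0.08 with bounds. In EpiLCs 2 germ cell genes were higher in TKO cells, Prdm14 (at least 13.8-fold, adjusted p = 0.000953 by edgeR) and Tfap2c (1.34, adjusted p = 0.0165 by edgeR). The neural genes Nes (-2.11, adjusted p = 0.00607 by edgeR) and Tubb3 (-1.27, adjusted p = 0.029 by edgeR) were lower there, and no floor plate gene was called. At day 2 without cytokines, beside 32.8% of all genes, TKO aggregates had 5 heart genes higher and none lower (median 1.73, or 1.05 with bounds), 2 floor plate and 2 endothelium genes higher and 1 of each lower, 6 germ cell genes higher and 4 neural genes lower. The part of these cell types in the members' values was not tested.

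**Figure D5:**
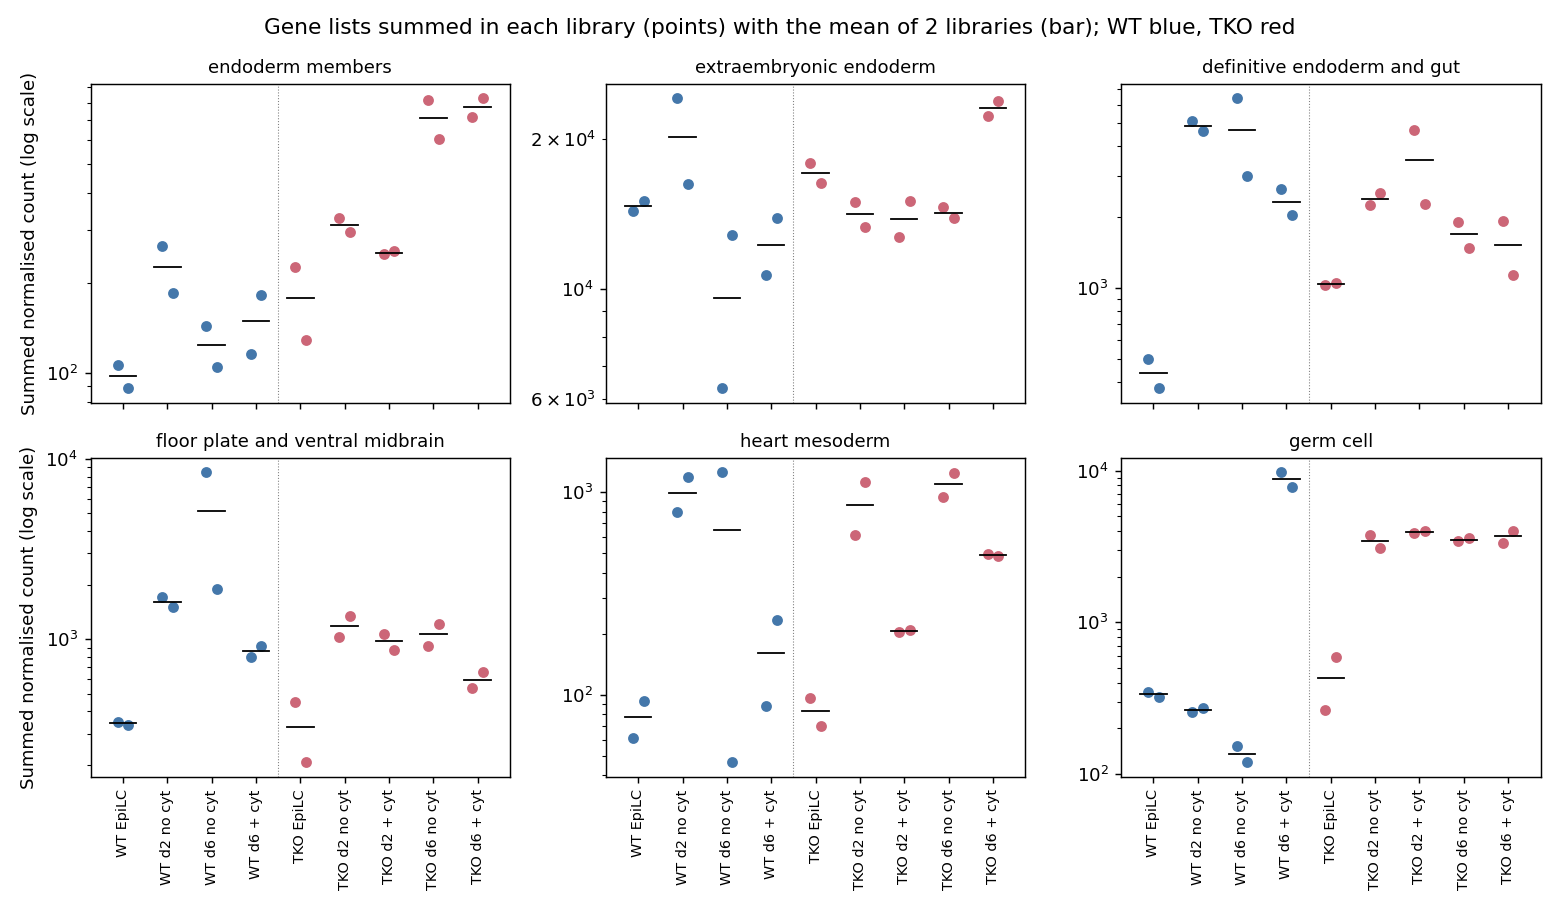
Normalised counts summed over each gene list (y axis, log scale, its own range in each panel) in the 2 libraries (points) and their mean (bar) of each condition, wild type in blue and TKO in red. The summed endoderm members are highest in day 6 TKO aggregates. Extraembryonic endoderm genes have their highest mean in day 6 TKO aggregates with cytokines, a level that 1 day 2 wild-type library reaches too, definitive endoderm genes have theirs in wild-type aggregates without cytokines, and the 2 day 6 wild-type libraries without cytokines lie far apart for floor plate and heart genes.

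The similarity of profiles was described by Pearson's r over the 9 condition means of log2 CPM, which share libraries and depth, so no test is given. Among the members, Gata6 and Sox7 (0.827), Sox7 and Foxa1 (0.817), Gata6 and Sox17 (0.806) and Gata4 and Gata6 (0.790) were most alike, and Gata4 and Foxa2 least (-0.360). Among all tested genes, those most like Gata4 were Hand1 (0.989), Tab3 (0.987) and Dock9 (0.982). Hand1 was at 122.8 and 122.4 normalised counts in day 6 TKO aggregates without and 179.7 and 155.0 with cytokines, 41.7 and 29.7 in TKO EpiLCs, and 11.8 and 39.3 in sorted wild-type cells. Nearest to Gata6 were Tmsb15b1 (0.972), Pign (0.950) and Elovl7 (0.947), and to Sox7 Sec11c (0.959), Obsl1 (0.948) and Serpind1 (0.944). For Foxa1, Postn (0.962) and Syndig1 (0.960) were among the nearest, and for Dab2 they were Has2 (0.935), 5730409E04Rik (0.904) and Vgf (0.894). For Sox17 they were Luzp4 (0.944), Cryga (0.943) and Apoa2 (0.935). For Foxa2 they were 4932413F04Rik (0.977), 9530052C20Rik (0.948) and Tnnc1 (0.946), and for Hnf4a they were Glod5 (0.976), Hdgfl1 (0.934) and Srsf5 (0.889). Of all these Serpind1, Postn, Luzp4, Cryga, Apoa2, 4932413F04Rik, Glod5 and Hdgfl1 were below 10 normalised counts on average.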

How the data were processed

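The authors trimmed the reads with Trim Galore 0.5.0 and cutadapt 1.16, aligned them to mm10 with STAR 2.7.1a and counted read pairs over refGene exons with featureCounts of Subread 1.5.2, without a strand option per the command lines in the file. The deposited values are raw counts per gene without normalisation for 18 libraries, and 33 rows of command lines without values were left out.

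Genes were filtered by condition (filterByExpr, 16582 of 25239 kept), scaled with TMM factors and fitted together with a mean per condition by edgeR's quasi-likelihood method (edgeR 4.0.16, limma 3.58.1, R 4.3.3) with Benjamini-Hochberg adjustment over all genes tested. Standard errors are approximate, taken from each test's F statistic, and are unreliable where the log2 fold change is very small. Levels are counts divided by size factors of DESeq2 1.42.0. If no library of a condition exceeded 3 counts, folds were computed against 3 counts in each library as lower bounds, and the fitted value depends on the prior count of 2. These bounds are ratios of condition means and leave out the spread between replicates. Positions and promoters are from RefSeq on GRCm38.p6, the assembly of mm10, and exon lengths from the GENCODE annotation of that assembly.

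The members and gene lists were chosen with earlier results of these data known. Named were the members, up to 4 genes a list and comparison with the largest called change and a mean of at least 50 normalised counts, the 3 genes most correlated with each member, and the Tet genes. Some genes that this rule names are not reported here. Ttr, Afp, Cdh5, Ttc6 and Rn45s were added after their values were seen. The script was tested on simulated data. Alternatives were DESeq2, RLE factors, library size alone, no filter, a block for replicate number, fits restricted to the libraries compared, an added limit of 2 on the log2 fold change, leaving out each library, and CPM for levels. List counts without either day 6 wild-type library without cytokines were added after seeing the data.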

Additional observations from a re-analysis of the deposited data

Results flagged for a closer look

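The change from EpiLCs to day 6 without cytokines differed between genotypes, by the edgeR interaction test, for Gata4 (4.62 on the log2 scale), Dab2 (1.78) and Hnf4a (7.20). These 3 of 8 members stand beside 37% of all genes called. The effect of cytokines at day 6 differed between genotypes by the same test for Gata4 (-6.00) and Gata6 (-2.96). For it, 2 of 8 members stand beside 42.9% of all genes. As given above, the calls of Dab2, Hnf4a and Gata6 were each lost without some single libraries, and those of Gata4 were not. Wild-type cells at day 6 without cytokines, which enter all 5 values, held 1 count each of Gata4 and Hnf4a in their 2 libraries together, so the size of the Gata4 and Hnf4a values depends on the prior count of the fit. In the second comparison wild-type cells with cytokines were sorted and TKO cells were not, and the part of the sort in the difference cannot be told apart from that of genotype. No group had enough libraries for a test of a single outlying library.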

How the results depend on the processing

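Of 1391 log2 fold changes and interactions of single members under the alternatives, 1193 kept their direction and their side of the threshold, 55 that were not called changed sign, 97 lost a call, 45 gained one and 1 reversed, the value of Foxa2 at day 6 without cytokines (2.30 without wild-type replicate 1 and, not called, -0.93 without wild-type replicate 2). A model of the compared libraries alone, whose own filter kept 103 of 136 values, moved the count of members called from 4 to 1 between wild-type EpiLCs and day 6 (3 members fitted), from 4 to 0 between wild-type days 2 and 6 (5 fitted), from 5 to 3 between sorted and whole wild-type cells, and from 0 to 2 and 0 to 3 for cytokines in TKO cells at days 2 and 6, where the share of all genes called also rose, from 4.52% to 21% and from 5.61% to 12.8%. Library size alone gave 6 in place of 4 from wild-type EpiLCs to day 2, 2 in place of 4 between wild-type days 2 and 6, 4 in place of 2 between TKO EpiLCs and day 2 without cytokines, and 2 and 2 in place of 0 for cytokines in TKO cells, and it moved the median of all genes by more than 0.1 in 13 of 17 comparisons (-0.49 to 0.73). For cytokines in TKO cells at day 2 and day 6, DESeq2 called 2 and 1 members and the fit without a filter 2 and 2, and between TKO EpiLCs and day 2 with cytokines both called 1. Requiring a log2 fold change beyond 2 left 1 of 2 at day 2, 5 of 6 at day 6 without and 4 of 6 with cytokines between genotypes, 3 of 4 between wild-type days 2 and 6, 4 of 5 for sorted against whole wild-type cells and 2 of 3 for the interaction with time. RLE factors changed no call.

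Leaving out 1 library left the lone library of its group to be assumed as variable as the others. The members called then ranged over 0 to 4, 1 to 3 and 2 to 4 along the wild-type course (EpiLCs to day 2, to day 6, day 2 to day 6), 2 to 6 and 3 to 4 for sorted cells against EpiLCs and whole aggregates, and 1 to 3, 1 to 2, 5 to 6 and 3 to 4 between genotypes in EpiLCs, at day 2, at day 6 without and at day 6 with cytokines. They ranged over 0 to 0 for cytokines in TKO cells at both days, 0 to 3 and 0 to 1 from TKO EpiLCs to day 2 without and with cytokines, 0 to 1 and 1 to 3 from day 2 to day 6 without and with cytokines, and 1 to 3 and 1 to 2 for the interactions with time and cytokines. The share of all genes called moved in these fits as well. It fell in all of them, for cytokines in TKO cells at both days too, except in some without a day 6 wild-type library without cytokines. These ranges therefore are not a result about the members alone. The cause of these changes was not tested.

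Replicates of the same number did not deviate together: 7 of 36 pairs of groups had a correlation above 0.1 (-0.156 to 0.182), so the numbers were not taken as pairs. With the replicate number as a block, 132 of 136 values kept their call. It called Foxa2 for cytokines in TKO cells at day 2, 1 member in place of 0, and Hnf4a between genotypes at day 6 without cytokines and between wild-type days 2 and 6, and Dab2 lost its call for the interaction with time. At 3 counts a library, Hnf4a, Sox17, Sox7 and Foxa2 are near the limit of this depth in several conditions.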
